A study of Mus musculus with 3 samples.

Results

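The cells described here are immature neutrophils that carry RNA of the secondary granules, picked from single-cell libraries of CD45+ cells of mouse liver tumours. They were chosen by raw counts of unique molecular identifiers (UMIs, 1 per captured RNA molecule). A barcode was kept when it had 200 genes or more and when mitochondrial RNA was at most 10% of its UMIs. It was a member when S100a8 and S100a9 made up at least 1% of its UMIs, when Ngp, Camp and Ltf together made up at least 0.5% and at least 5 UMIs, when Elane, Mpo and Prtn3 summed to at most 4 UMIs, and when Cd3e, Cd79a and C1qa were at 0. This gave 1766 members of 36386 kept barcodes, namely 130 from control, 752 from DU101 and 884 from DU102. Ngp, Camp, Ltf, S100a8 and S100a9, and every gene that separates these cells from others, were fixed by that choice and are given as a description.

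The tumours came from MYC-ON mice, in which a MYC transgene is switched on, of strain C57BL6 at 18 weeks of age. All 3 groups share this background, and the labels name neither the promoter that drives the transgene nor how many mice each library holds. Live CD45+ cells were sorted and made into 1 library for each of 3 groups, which were control, DU101 treated and DU102 treated. DU101 and DU102 are code names, and the labels give no dose, route or duration. With 1 library per group there is no replicate check, so no test was made between groups, and all intervals cover counting error only.

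Neutrophils mature in bone marrow through a fixed order of granule production. Early precursors make the proteases of the primary granules, such as elastase and myeloperoxidase. Later stages, which divide at first and then stop, make the secondary granules with lactoferrin (Ltf), cathelicidin (Camp) and neutrophilic granule protein (Ngp), then the gelatinase-containing tertiary granules, and mature cells keep these proteins but lose most of the granule RNA. The transcription factor C/EBP epsilon is required for the secondary granule genes.

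The 3 granule genes of the choice lie on chromosome 9 of the mouse genome between positions 109847377 and 111042766, a stretch of 1.20 Mb that holds other genes too. Their promoters, the 250 bases before the RefSeq start in GRCm38.p6, are printed because these genes define the cells, together with Chil3, a granule gene that differed between libraries, and Isg15, the interferon-induced gene that ranked highest among those that differed from control. Capitals mark matches on either strand to the C/EBP-type letters TTNNGNAA or, in Isg15, to GAAA, 2 bases of any kind and GAAA again, the core of an interferon-stimulated response element; overlapping matches run together.
Ngp, chr9:110419558-110419807, plus strand: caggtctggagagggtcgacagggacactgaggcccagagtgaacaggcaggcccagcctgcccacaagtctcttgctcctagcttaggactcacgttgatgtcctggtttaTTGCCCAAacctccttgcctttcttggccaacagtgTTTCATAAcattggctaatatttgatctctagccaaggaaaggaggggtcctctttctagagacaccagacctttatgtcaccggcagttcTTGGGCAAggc
Camp, chr9:109849457-109849706, minus strand: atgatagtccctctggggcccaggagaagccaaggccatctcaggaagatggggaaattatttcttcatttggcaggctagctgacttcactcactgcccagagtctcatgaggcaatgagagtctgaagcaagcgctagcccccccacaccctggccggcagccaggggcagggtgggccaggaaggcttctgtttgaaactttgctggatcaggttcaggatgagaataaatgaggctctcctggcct
Ltf, chr9:111019042-111019291, plus strand: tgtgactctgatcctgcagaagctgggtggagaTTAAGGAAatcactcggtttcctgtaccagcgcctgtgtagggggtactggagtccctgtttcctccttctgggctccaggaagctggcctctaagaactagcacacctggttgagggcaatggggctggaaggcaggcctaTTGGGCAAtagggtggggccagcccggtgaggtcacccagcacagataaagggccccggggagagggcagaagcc
Chil3, chr3:106167565-106167814, minus strand: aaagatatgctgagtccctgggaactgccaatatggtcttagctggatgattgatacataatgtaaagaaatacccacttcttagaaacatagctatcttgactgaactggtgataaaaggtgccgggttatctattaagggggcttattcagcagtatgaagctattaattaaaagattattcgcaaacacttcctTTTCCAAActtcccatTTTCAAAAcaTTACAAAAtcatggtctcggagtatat
Isg15, chr4:156200819-156201068, minus strand: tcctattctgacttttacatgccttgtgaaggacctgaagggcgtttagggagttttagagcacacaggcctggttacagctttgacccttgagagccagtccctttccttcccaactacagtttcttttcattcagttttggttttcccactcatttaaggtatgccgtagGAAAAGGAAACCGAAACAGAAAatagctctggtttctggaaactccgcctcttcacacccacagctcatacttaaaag
The C/EBP-type letters occurred 3 times in the Ngp window, 2 times in Ltf, 3 times in Chil3 and 0 times in Camp. Of 12 secondary granule genes with a promoter in the table, 8 held them, against 36.8% of all 32851 promoters. So did 5 of 7 tertiary granule, 2 of 6 primary granule and 13 of 21 type I interferon-induced genes. The letters therefore did not set the secondary granule genes apart from the other lists. The interferon-type letters occurred 3 times in Isg15. They were in 10 of 21 type I interferon-induced genes with a promoter in the table, in 0 of the 12 secondary granule genes, and in 2.98% of all promoters. In the lists a gene counted if any of its promoters matched, while the shares of all promoters count each promoter. A match is a run of letters and not a measured binding site.

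The control, DU101 and DU102 libraries held 12639, 15686 and 13650 barcodes of 500 UMIs or more, and 91013198, 106604935 and 96817875 UMIs. Members had a median of 10241.5 UMIs in control, 6434.5 in DU101 and 9565 in DU102, and the 10th percentile was 4614.5, 1208.6 and 2853 UMIs. Granule RNA was also found in barcodes of other cell types. In T cells, taken as kept barcodes with a Cd3e UMI and at most 4 UMIs of Elane, Mpo and Prtn3, which do not make granule proteins, Ngp, Camp and Ltf made up 0.0657% of UMIs in control, 0.136% in DU101 and 0.259% in DU102, and 0.265%, 1.40% and 1.79% of T cell barcodes passed the granule limit. Of the members, 0, 26 and 28 were called doublets, and 1 barcode was a member in both DU101 and DU102.

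The control library mixed cells of both sexes, and the treated libraries did not. In control, 5548 kept barcodes had Xist and no Y-linked RNA, and 1861 had Y-linked RNA and no Xist. In DU101 and DU102, Xist was seen in 0.140% and 0.0683% of kept barcodes. The control members were 12 with Xist alone, 69 with Y-linked RNA alone, 6 with both and 43 with neither, so Xist was in 13.8% of them against 56.6% of kept control barcodes. Treatment and the sex mix of the animals cannot be told apart in a comparison of whole libraries, so values among Y-positive, Xist-negative cells stand beside many of the results. Those values also leave out 414 DU101 and 408 DU102 members with neither RNA, although Xist was almost absent there. A cell with more UMIs is likelier to show a Y-linked one, so these values can differ through depth as well as sex. The part of each was not tested.

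Immature neutrophils were a larger share of CD45+ cells in both treated libraries. They made up 1.25% of kept barcodes in control (95% Clopper-Pearson interval 1.04 to 1.48), 5.27% in DU101 (4.91 to 5.65) and 7.55% in DU102 (7.08 to 8.04). The intervals did not overlap. The share was 4.23-fold that of control in DU101 (exact interval 3.50 to 5.13) and 6.05-fold in DU102 (5.03 to 7.33), and in DU101 it was 0.699 of that in DU102 (0.633 to 0.771).

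Among barcodes with Y-linked RNA and no Xist the differences from control were much smaller. There the members were 69 of 1861 in control (3.71%, interval 2.90 to 4.67), 338 of 6764 in DU101 (5.00%, 4.49 to 5.54) and 475 of 6186 in DU102 (7.68%, 7.03 to 8.37). The ratio to control was 1.35 in DU101 (1.04 to 1.77) and 2.07 in DU102 (1.61 to 2.71). The Y-linked genes were at 92.3, 91.1 and 86.6 CPM (UMIs of a gene, scaled to the same total in each library) in the members, close together, but at 52.8, 114 and 131 CPM in the other kept barcodes.

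**Figure D1:**
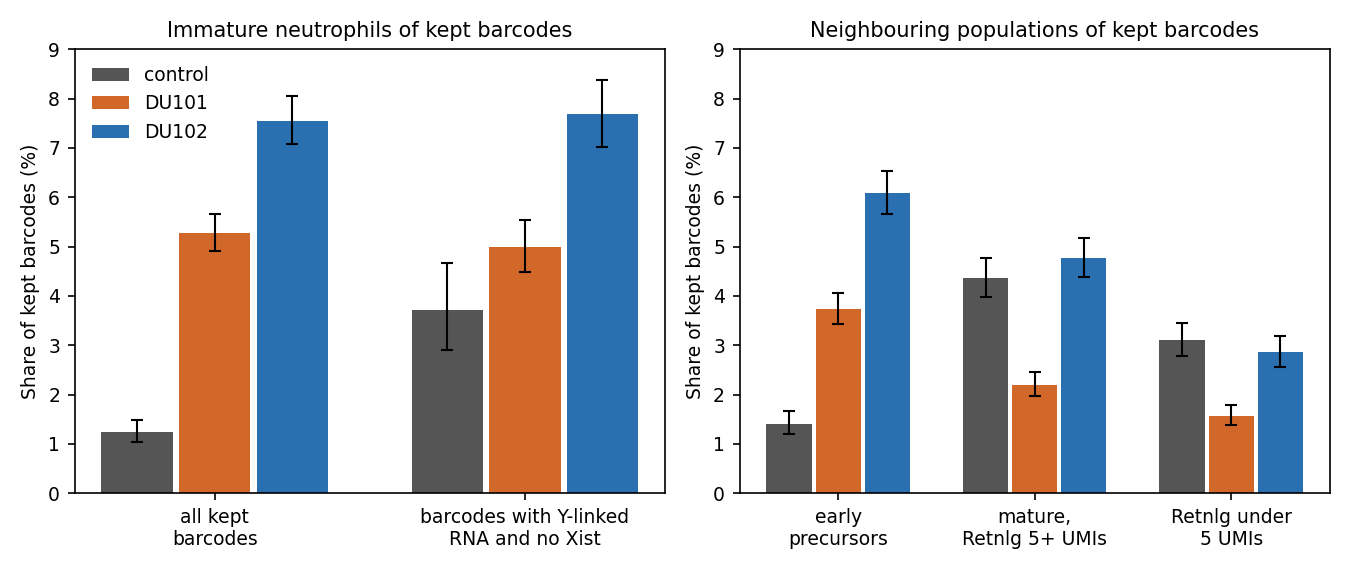
Shares of kept barcodes (%) in control, DU101 and DU102; bars are the single library of each group and error bars exact 95% binomial intervals. On the left, immature neutrophils are 1.25%, 5.27% and 7.55% of all kept barcodes and 3.71%, 5.00% and 7.68% of Y-positive, Xist-negative barcodes; on the right are the neighbouring populations.

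The stages around the members did not all follow them. Early precursors were taken as barcodes with at least 5 UMIs of Elane, Mpo and Prtn3 and no Cd3e, Cd79a or C1qa UMI. They were 1.41% of kept barcodes in control, 3.74% in DU101 and 6.09% in DU102. Mature neutrophils with at least 5 UMIs of Retnlg, a secreted protein of mature cells, and below the granule limit, were 4.37%, 2.20% and 4.77%. Neutrophils with fewer Retnlg UMIs were 3.10%, 1.57% and 2.86%. Both neutrophil groups lay below the granule limit, met the other limits set for members and had a Csf3r UMI in every cell. Barcodes without a Csf3r UMI were thus left out of them. For each precursor there were 0.884 immature cells in control, 1.41 in DU101 and 1.24 in DU102, and for each mature Retnlg cell 0.286, 2.40 and 1.58. Among S100a8- and S100a9-rich barcodes that met the other limits, members made up 13.1%, 51.9% and 42.3% in the order control, DU101, DU102.

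The granule limit cut through a continuous spread. In the median member, Ngp, Camp and Ltf made up 7.15% of UMIs in control, 7.89% in DU101 and 7.90% in DU102. Under 1% were 16, 64 and 82 members, while 31, 84 and 219 barcodes lay just outside, from 0.25% to the limit or under 5 UMIs. In the plot of granule RNA per barcode, 559 control, 228 DU101 and 236 DU102 barcodes lay under 0.01%, the fullest bin in control. The bin from 5% to 10% held 47, 253 and 339 and that from 10% to 20% held 34, 238 and 251, so every library had a second rise there. The fullest DU102 bin was 0.1% to 0.25%, with 350 barcodes.

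**Figure D2:**
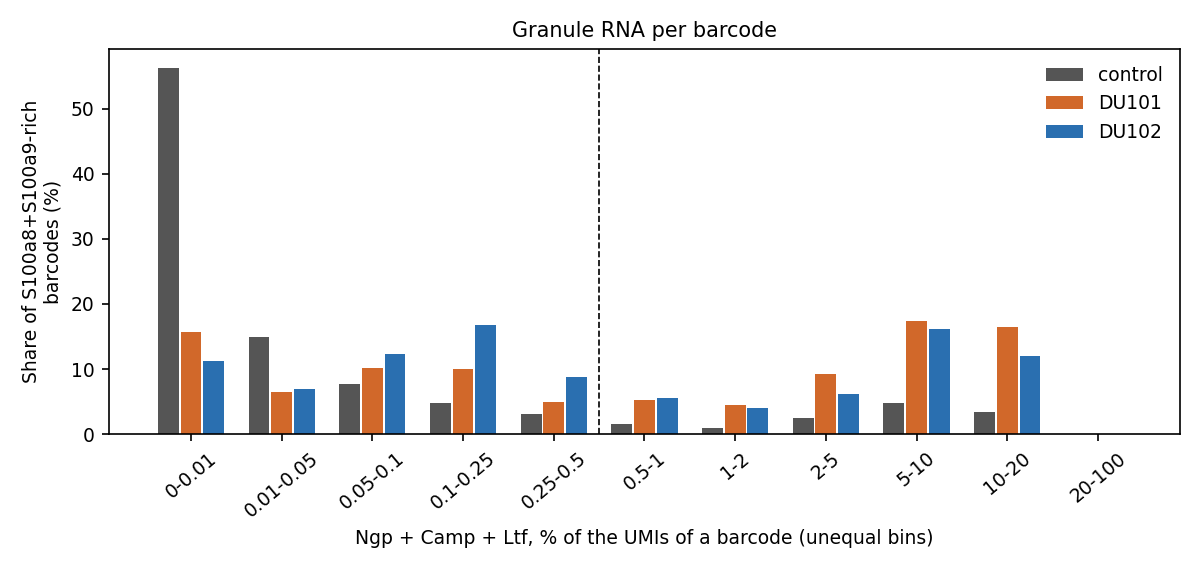
Share of S100a8- and S100a9-rich barcodes (%) by the part of their UMIs in Ngp, Camp and Ltf (unequal bins), for the control, DU101 and DU102 libraries; the dashed line is the 0.5% limit. Members lie to its right, 13.1%, 51.9% and 42.3% of these barcodes.

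Ngp, Camp and Ltf were part of the choice. The markers Cd177 and Ly6g were not counted in it but go with the chosen cells, so they are a description. Both were present. Cd177, a surface protein of neutrophils, was at 1014, 973 and 1098 CPM in control, DU101 and DU102 members, against 27.8, 57.7 and 110 CPM in the other kept barcodes. Ly6g, the standard surface marker of mouse neutrophils, was at 382, 536 and 642 CPM against 6.97, 18.9 and 32.2. Mature Retnlg cells held Cd177 at 95.4, 192 and 195 CPM and Ly6g at 141, 319 and 330 CPM. Ly6g was therefore not particular to the immature stage. Padi4, which citrullinates histones, Mmp25, a membrane protease, and Ifitm6 were also among the genes with the highest levels over other barcodes in all 3 libraries, a set picked after the values were seen. S100a8 and S100a9, the calprotectin subunits, took 30.4%, 34.7% and 36.6% of all member UMIs.

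To compare levels, UMIs were summed over the members of a library and given as CPM. A gene counted as higher or lower where the levels differed by at least 1.5-fold, the exact 95% interval of the ratio stayed on that side of 1 and both libraries together held at least 30 UMIs. Of 7520 genes, 4.43% were higher and 7.05% lower in DU101 than in control. Of 7960 genes, 3.07% were higher and 12.9% lower in DU102 than in control. Between the treated libraries, 13.1% of 8715 genes differed, 957 of them higher in DU101 than in DU102 and 2.13% of all tested genes lower. The median log2 ratio of all tested genes was -0.05, -0.19 and 0.14 in these comparisons. Leaving granule, S100 and stefin genes out of the totals moved all log2 ratios to DU102 over control up by 0.20 and changed the split from 244 higher and 1026 lower to 493 and 511. For DU101 over control it changed 333 and 530 to 561 and 286. Each of the first 2 comparisons uses the same control library.

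Most secondary granule genes were at like levels in the 3 libraries. Of 13 listed genes, 1 was higher and 2 lower in DU101 than in control, and 0 were higher and 2 lower in DU102. The lower pair was Chil3 and Olfm4 in both, and the higher gene was Fcnb. The median log2 ratio of the list was 0.12 in both. Ngp was at 34307 CPM in control, 37857 in DU101 and 36464 in DU102, and Camp at 34443, 39548 and 37462. Lcn2, which binds bacterial siderophores, was at 14428, 15629 and 15840 CPM. Ltf, which binds iron, was lowest in control, at 6766 CPM against 9028 and 9518, and its ratio to control, 1.33 in DU101 (1.31 to 1.36) and 1.41 in DU102 (1.38 to 1.44), stayed under the size limit.

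Chil3, a chitinase-like protein, was lower than control in both treated libraries. It was at 8895 CPM in control, 4432 in DU101 and 4429 in DU102. Both treated libraries were 2.01-fold lower (interval 1.96 to 2.05 in DU101 and 1.97 to 2.05 in DU102), and their ratio to each other was 1.00 (0.987 to 1.02). Chil3 was also lower in treated early precursors, at 3921 CPM in control against 1791 and 2574, and in mature Retnlg cells, at 406 against 185 and 254. Fcnb, a lectin of early secondary granules, was highest in DU101, at 478 CPM against 241 in control and 283 in DU102, a ratio of 1.99 to control (1.78 to 2.23). Olfm4, a secondary granule protein that only some neutrophils carry, was lower in both treated libraries, but at least 88.2% of its treated UMIs sat in the top 2% of cells.

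Of 8 tertiary granule genes, 1 was higher than in control in each treated library and 0 were lower. That gene was Lyz2, lysozyme, at 5793 CPM in control, 9040 in DU101 and 11569 in DU102, which is 1.56-fold (1.52 to 1.60) and 2.00-fold (1.95 to 2.04) control. Mmp8, neutrophil collagenase, was at 912, 632 and 978 CPM, and was 1.55-fold lower in DU101 than in DU102 over all members. Members were also split by Retnlg level into low, middle and high ranges, which are defined below. There Mmp8 was at 102, 530 and 2068 CPM in DU101 and at 108, 304 and 2283 CPM in DU102. Within no range was Mmp8 lower in DU101 by the size limit. The part of maturation in the difference over all members was not tested. Mmp9, gelatinase B, was at 772, 680 and 870 CPM. All 7 genes of the NADPH oxidase, which makes superoxide, stayed within the size limit in every comparison. Its catalytic subunit Cybb was at 1459, 1439 and 1549 CPM. Ly6g was higher in DU102 than in control by 1.68-fold (1.54 to 1.83).

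Primary granule genes were low, as the choice requires for 3 of them. Elane was at 8.96 CPM in control, 36.1 in DU101 and 35.1 in DU102, Mpo at 1.38, 18.9 and 27.2, and Ctsg, cathepsin G, at 4.13, 27.8 and 19.5. In T cell barcodes of the same library, held to the same limit on these genes, Elane stood at 6.87, 39.4 and 53.2 CPM. The part of free RNA in these values was not tested.

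Among the transcription factors of granulocyte development, 1 of 18 tested was higher and 1 lower in DU101 than in control, and 1 was higher and 3 lower in DU102. Cebpe was at 281 CPM in control, 421 in DU101 and 333 in DU102. Cebpb, used in emergency granulopoiesis, was at 1364, 769 and 974 CPM, 1.77-fold lower in DU101 than in control (1.68 to 1.87) over all members. In the low, middle and high Retnlg ranges, Cebpb was at 458, 651 and 2719 CPM in control and at 422, 682 and 1654 CPM in DU101. It was thus lower in DU101 by more than the size limit only in the high range. The part of maturation in the difference over all members was not tested. Klf2, a quiescence factor, was at 998, 817 and 515 CPM, 1.94-fold lower in DU102 (1.83 to 2.06). Irf8 was the higher factor in both, on 16 UMIs in control, 194 in DU101 and 189 in DU102. Its log2 ratio to control was 1.60 and 0.89 with the barcodes called doublets and -0.56 and -0.06 without them. Endogenous Myc had 0, 15 and 14 UMIs and was not compared.

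**Figure D3:**
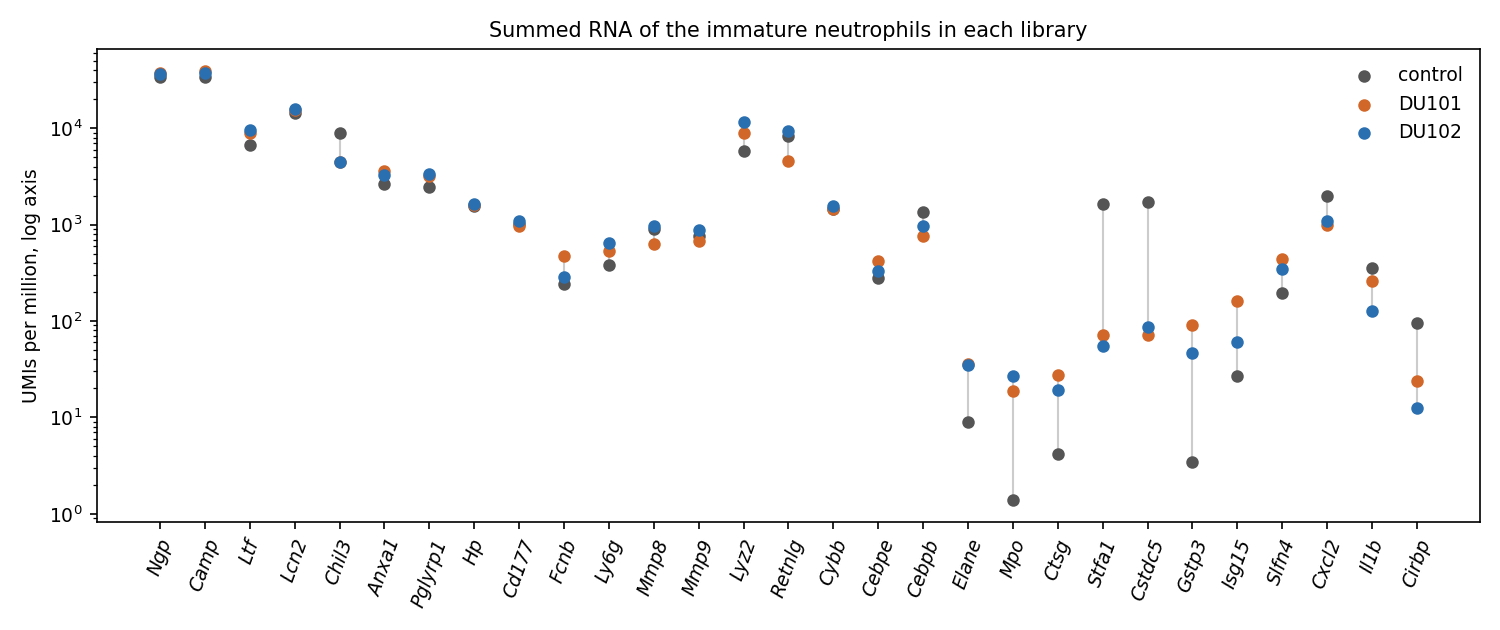
CPM (log axis) of the members' summed RNA for named genes; each point is 1 library, control, DU101 or DU102. Ngp, Camp, Ltf and Lcn2 at the left lie close together, while Chil3, stefins (Stfa1, Cstdc5), Gstp3, Isg15 and Cirbp spread widely.

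Stefin genes were far lower in the treated members. Stefins are small cysteine protease inhibitors, and their genes form a cluster on chromosome 16. Stfa1 was at 1635 CPM in control, 72.5 in DU101 and 54.9 in DU102, lower by 22.6-fold (20.3 to 25.1) and 29.8-fold (27.0 to 32.8). Cstdc5 was at 1706, 71.1 and 86.5 CPM. Stfa2, Stfa3, Stfa2l1 and Cstdc4 were lower in both as well, by 4.98-fold to 15.3-fold. In the treated libraries few cells carried most of this RNA. Stfa1 was seen in 34.6% of control, 5.59% of DU101 and 4.86% of DU102 members, and the top 2% of cells held 40.2%, 86.7% and 92.9% of its UMIs. Without those cells its log2 ratio to control was -6.67 in DU101 and -8.00 in DU102. It was also higher in control in mature Retnlg cells, at 1837 CPM against 370 and 219. These genes are near-copies of each other, so reads may be split between them.

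Gstp3, a glutathione transferase, went the other way. It had 5 UMIs in control, or 3.45 CPM, against 90.0 CPM in DU101 and 47.0 in DU102, 26.1-fold (11.1 to 80.8) and 13.6-fold (5.80 to 42.2) control. It was seen in 3.85% of control members, 40.4% of DU101 and 33.8% of DU102, and was likewise higher in treated mature Retnlg cells, at 8.04 CPM in control against 121 and 75.2. Cmah, which makes a sialic acid, was at 24.1, 63.6 and 78.4 CPM, 2.64-fold and 3.25-fold control.

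A pair of genes that stood far higher in members than in other barcodes was lower in both treated libraries without resting on few cells. Crispld2, a secreted protein, was at 224 CPM in control, 75.4 in DU101 and 88.3 in DU102 members, against 12.4, 6.97 and 10.3 CPM in other kept barcodes. It was lower by 2.97-fold (2.56 to 3.44) and 2.54-fold (2.22 to 2.89). Mature Retnlg cells, which are part of the other barcodes, held Crispld2 at 210, 114 and 141 CPM. Its level was therefore not particular to members. Scrg1, another small secreted protein, was at 123, 32.8 and 35.2 CPM against 3.41, 1.37 and 2.50 in other barcodes, lower by 3.76-fold and 3.50-fold. Other barcodes pool mature Retnlg cells with many other cells, so they do not show whether Scrg1 was particular to members. The top 2% of cells held 10.6%, 24.1% and 17.2% of the Scrg1 UMIs.

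Genes induced by type I interferon, antiviral genes that switch on behind the interferon receptor, were higher in DU101. Of 27 tested, 21 were higher and 0 lower in DU101 than in control (median log2 ratio 1.00), 5 of 26 were higher in DU102 (0.27), and 18 of 27 were higher in DU101 than in DU102 (1.06). Isg15, a ubiquitin-like protein, was at 26.9 CPM in control, 160 in DU101 and 60.7 in DU102, 5.94-fold (4.31 to 8.41) and 2.26-fold (1.63 to 3.21) control. Ifit1, which binds viral RNA, was at 8.96, 37.3 and 14.5 CPM, and Bst2, tetherin, at 18.6, 65.8 and 24.0 CPM. Ifi27l2a, a mitochondrial interferon-induced protein, was at 257, 703 and 194 CPM, and Irf7, the factor that amplifies the interferon response, at 28.3, 67.4 and 26.9 CPM. Both were higher in DU101 than in either other library, and DU102 and control stayed within 1.5-fold of each other. The list's median log2 ratio of DU101 to control was 1.15, 1.16 and 1.29 in members with under 2, 2 to 9 and 10 or more Retnlg UMIs of 2000, and 1.02 among Y-positive, Xist-negative cells.

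The other kept barcodes of DU101 were also higher in this list. Its summed level was 2161 CPM in control members, 3812 in DU101 and 2792 in DU102, and 3177, 4148 and 2774 CPM in other kept barcodes. Isg15 in other barcodes, at 141, 233 and 108 CPM, exceeded that in members. Slfn4, a myeloid gene, stood higher in members than in other barcodes, at 196, 445 and 344 CPM against 18.8, 40.9 and 41.1 CPM. In members it was 2.27-fold control in DU101 (2.01 to 2.58) and 1.76-fold in DU102 (1.56 to 1.99). Its level in the other barcodes was likewise higher in both treated libraries than in control. The part of free RNA in these levels was not tested.

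Inflammatory genes were lower in DU102. Of 15 tested, 10 were lower and 1 higher in DU102 than in control, and 5 of 14 were lower in DU101. The list's median log2 ratio of DU102 to control was -0.83, and -0.53 among Y-positive, Xist-negative cells. Cxcl2, a neutrophil attractant, was at 1965 CPM in control, 989 in DU101 and 1081 in DU102, 1.99-fold and 1.82-fold lower. Among Y-positive, Xist-negative cells the log2 ratio of Cxcl2 to control was -0.38 in DU101 and -0.54 in DU102, both under the size limit. Il1b was at 353, 259 and 127 CPM, and of its differences from control the one in DU102, 2.78-fold lower (2.50 to 3.09), passed the size limit. Ccl4 was at 118, 144 and 36.9 CPM, with 83.2% of its DU101 UMIs in the top 2% of cells, and its log2 ratio of DU102 to control was -1.68 over all members and -0.83 among Y-positive, Xist-negative cells. Cd274, the ligand of PD-1, was at 16.5, 9.62 and 6.38 CPM, on 24 control UMIs, and its log2 ratio to control was 0.79 in DU101 and 0.10 in DU102 among Y-positive, Xist-negative cells.

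Of 8 tested genes named for suppressive neutrophils, 3 were lower in each treated library and 0 were higher. The list's median log2 ratio to control was -0.38 in DU101 and -0.32 in DU102, and -0.096 and -0.13 among Y-positive, Xist-negative cells. Wfdc17 was at 267 CPM in control, 124 in DU101 and 97.6 in DU102, though other barcodes held more, at 655, 415 and 422 CPM. Ptgs2, cyclooxygenase-2, was at 62.0, 47.6 and 29.9 CPM. Arg1 had 0, 6 and 6 UMIs and Nos2 had 0, 1 and 22, so neither was compared with control.

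Immediate-early and heat shock genes, which respond to stimulation and handling, were lower in 10 of 17 in DU102 than in control, and 2 were higher and 2 lower in DU101. Jun was at 1654 CPM in control, 1030 in DU101 and 690 in DU102. Hspa1b, an HSP70, was at 289, 364 and 137 CPM. The cold-inducible RNA-binding genes were lower too: Cirbp was at 96.5, 23.7 and 12.5 CPM, 4.07-fold (3.19 to 5.19) and 7.69-fold (5.97 to 9.93) lower, and Rbm3 at 584, 329 and 186 CPM. Of 8 glucocorticoid-responsive genes, 1 was higher and 2 lower in DU101, and 0 were higher and 5 lower in DU102. Dusp1, a phosphatase that turns off MAP kinases, was at 606, 389 and 262 CPM, and Fkbp5, a chaperone of the steroid receptor, at 46.9, 28.0 and 21.2. Among Y-positive, Xist-negative cells both DU101 differences were under the size limit, with log2 ratios of -0.34 for Dusp1 and -0.29 for Fkbp5. The median of the glucocorticoid list in DU101 over control was -0.54 over all members and -0.30 in those cells.

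Most replication genes tested were lower in DU102 and fewer in DU101. Of the S phase list, 5 of 17 were lower in DU101 and 11 of 16 in DU102, with 0 higher in either. Rrm1, a subunit of ribonucleotide reductase, was at 51.0 CPM in control, 27.3 in DU101 and 24.5 in DU102, but in cells thinned to 2000 UMIs its log2 ratio of DU101 to control was 0.15 in place of -0.90. The median log2 ratio of the S phase list to control was -0.50 in DU101 and -0.87 in DU102, and -0.12 and -0.67 after that thinning. It was -0.90 and -0.96 among Y-positive, Xist-negative cells. Mcm4, of the replicative helicase, was at 22.7, 11.7 and 8.65 CPM, and Pcna at 77.2, 58.9 and 40.5, but the log2 ratio of Pcna in DU102 to control was -0.05 in thinned cells. Of 22 G2/M genes, 1 was higher and 0 lower in each treated library. Mki67 was at 205, 187 and 208 CPM. Leaving out cells with G2/M RNA brought the S phase median log2 ratio of DU102 to control from -0.87 to -0.18.

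Metabolic genes were mostly level. Of 14 glycolysis and hypoxia genes, 1 was higher in DU101, Hk2, and 0 differed in DU102. Gapdh was at 1462, 1359 and 1350 CPM. Hk2, hexokinase 2, was at 82.0, 129 and 99.5 CPM. Of the iron and oxidative stress genes, 1 of 14 was higher and 2 lower in DU101, and 2 of 15 were higher and 3 lower in DU102. Fth1, the ferritin heavy chain, was at 3377, 1904 and 2116 CPM, and Hmox1, which breaks down haem, at 79.9, 43.8 and 41.1. Gclm, which serves glutathione synthesis, was higher instead, at 22.7, 37.8 and 45.0 CPM, 1.66-fold (1.15 to 2.47) and 1.98-fold (1.39 to 2.91) control. Among Y-positive, Xist-negative cells the log2 ratio to control of Fth1 was -0.46 and -0.43, and that of Gclm in DU101 was 0.49, all under the size limit.

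**Figure D4:**
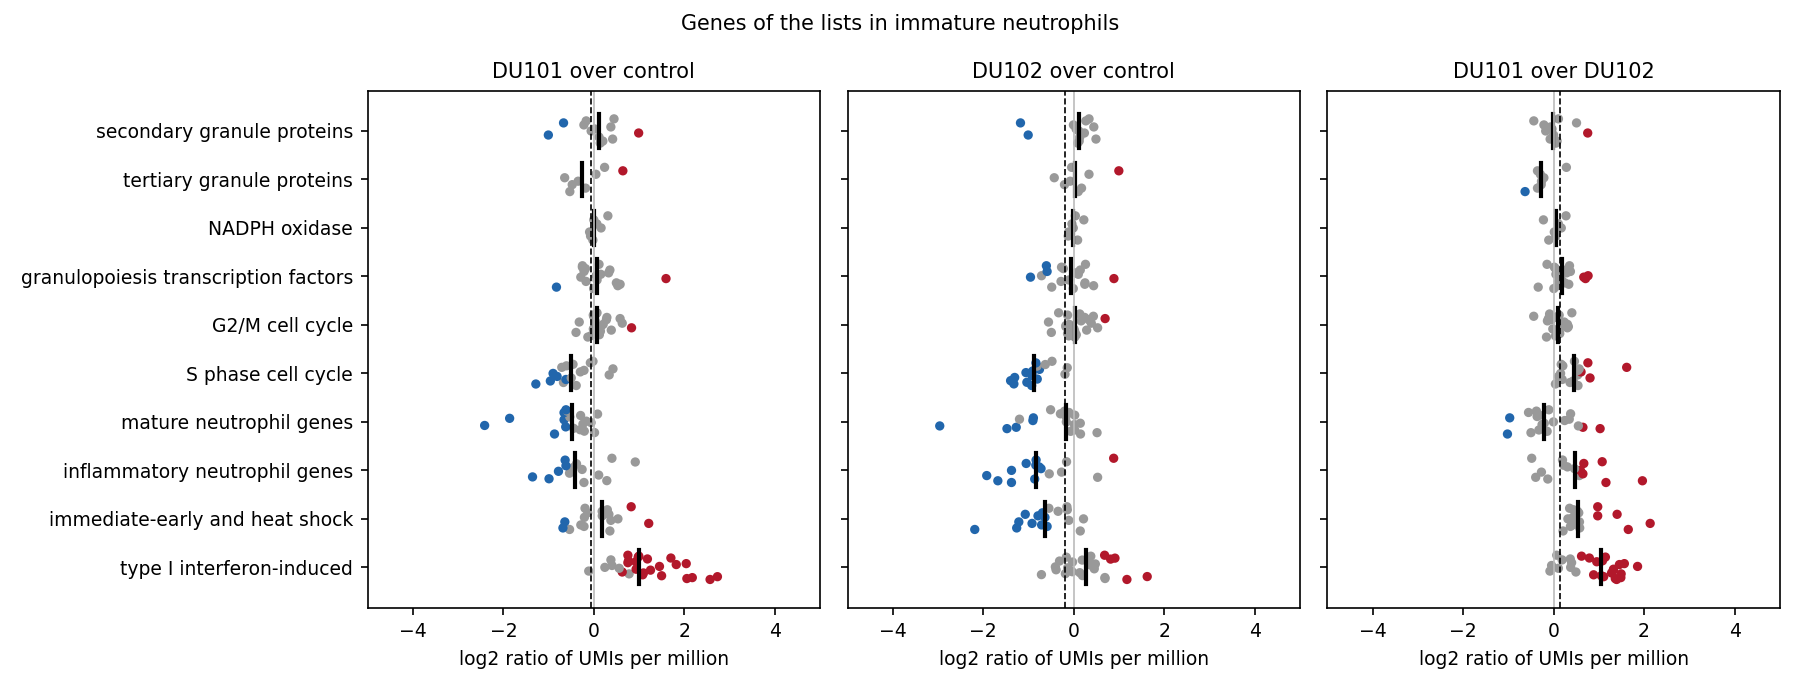
Log2 ratios of CPM for the tested genes of 10 lists in 3 comparisons of single libraries; red points are higher and blue points lower by the size rule, black bars list medians and the dashed line the median of all tested genes. Interferon-induced genes stand to the right in DU101 against both other libraries, and S phase and inflammatory genes to the left in DU102 over control.

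With each cell thinned to 2000 UMIs, 16.5% of 127 control members (10.5 to 24.2), 21.5% of 594 DU101 members (18.3 to 25.1) and 16.5% of 830 DU102 members (14.0 to 19.2) had at least 3 UMIs of the G2/M list. The intervals overlapped. The cells left out as shallower numbered 3, 158 and 54. The same share was 55.6%, 60.5% and 57.3% in early precursors and 0.761%, 1.05% and 1.20% in mature Retnlg cells. Without thinning the shares were 26.2%, 24.5% and 23.4%, so no order of the libraries was read from them.

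Retnlg split the members along maturation, and DU101 held more cells at its low end. Of the thinned cells, control had 26.0% (18.6 to 34.5) with under 2 Retnlg UMIs, DU101 had 46.6% (42.6 to 50.7) and DU102 27.8% (24.8 to 31.0). Those with 10 or more were 52.0%, 30.5% and 51.3%. Among Y-positive, Xist-negative cells the low range held 33.3%, 41.3% and 28.7% and the high range 52.2%, 34.6% and 54.5%. These are ranges of a continuous level: 27, 106 and 112 cells had 1 or 2 UMIs. Retnlg itself was at 8359, 4577 and 9279 CPM over all members.

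The levels of other genes followed this order in each library. Camp was at 49462, 46415 and 47592 CPM in control, DU101 and DU102 members with under 2 Retnlg UMIs and at 14578, 21427 and 23024 CPM in those with 10 or more. Fcnb dropped from 460, 700 and 515 to 18.4, 45.2 and 35.3 CPM, and Cebpe from 407, 526 and 498 to 109, 161 and 131. Mmp8 went from 111, 102 and 108 to 2168, 2068 and 2283 CPM. The chemokine receptor Cxcr2, with which mature neutrophils leave the marrow, went from 60.1, 78.5 and 114 to 426, 572 and 566 CPM. Mki67 was at 430, 274 and 403 CPM at the low end and 5.51, 17.7 and 18.2 at the high end. Chil3 was lower in treated cells within each range, at 13053 CPM in control against 5522 and 6666 at the low end and 3552 against 1642 and 1783 at the high end.

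**Figure D5:**
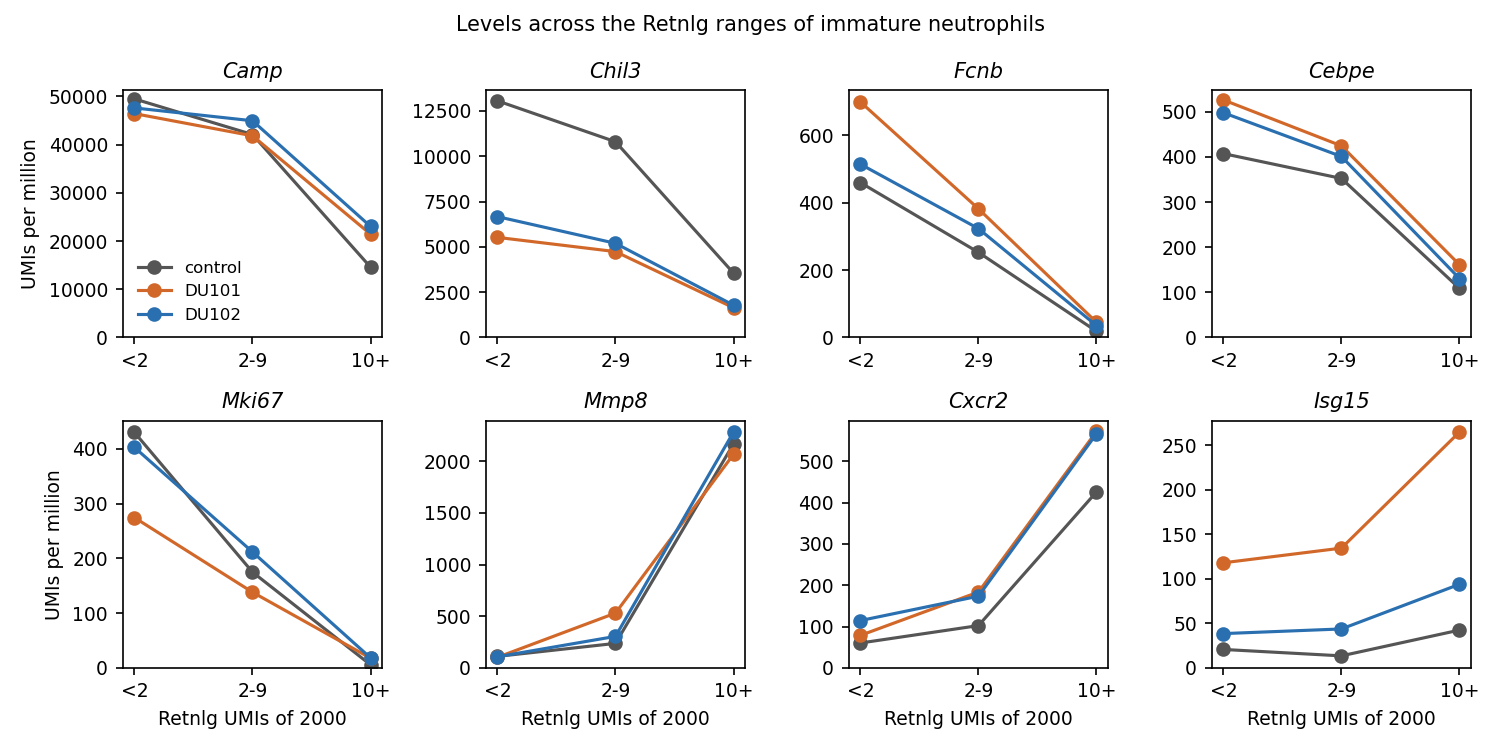
CPM of 8 genes in members with under 2, 2 to 9 and 10 or more Retnlg UMIs of 2000; each line is 1 library, control, DU101 or DU102. Camp, Fcnb, Cebpe and Mki67 are lower and Mmp8 and Cxcr2 higher toward the right in all 3 libraries, Chil3 is highest in control and Isg15 in DU101 throughout.

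Of 18 mature neutrophil genes tested, 7 were lower and 0 higher in DU101 than in control (median log2 ratio -0.49), and in DU102 5 of 19 were lower and 0 higher (-0.17). Of all tested genes, 7.05% and 12.9% were lower, with medians of -0.05 and -0.19. The list median in DU102 was thus near that of all genes. The list medians were -0.20 and -0.04 among Y-positive, Xist-negative cells. In members with under 2 Retnlg UMIs of 2000 the median of the list in DU101 over control was 0.03. Il1r2, a decoy receptor for IL-1, was at 194, 123 and 104 CPM, and Ifitm1 at 232, 63.7 and 125. Ifitm1 was 3.63-fold and 1.85-fold lower than in control, but among Y-positive, Xist-negative cells its log2 ratio was -0.73 in DU101 and 0.15 in DU102. The receptor Csf3r, for the growth factor G-CSF, was at 125, 108 and 120 CPM. Of 22 receptor and adhesion genes, 0 differed from control in DU101, and 2 were higher and 2 lower in DU102.

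DU101 and DU102 members were also set side by side, where 13.1% of all tested genes differed. Beside the interferon-induced genes given above, 6 of 15 inflammatory and 4 of 17 S phase genes were higher in DU101 than in DU102 and 0 of either list were lower, while of 19 mature genes 2 were higher and 2 lower. Retnlg was one of the lower pair, 2.03-fold lower in DU101 (2.00 to 2.06). Of the named genes lower in DU101, Thbs1, thrombospondin 1, was at 236 CPM in DU101 and 399 in DU102, Cap1, an actin regulator, at 189 and 331, and Lrmp at 54.8 and 110. Among Y-positive, Xist-negative cells the log2 ratio of Thbs1 was -0.42, under the size limit. By Retnlg range, Thbs1 in DU101 and DU102 was at 62.8 and 64.1 CPM under 2 UMIs of 2000. It was at 236 and 116 from 2 to 9, and 623 and 894 at 10 or more. Stmn1, a tubulin-binding protein of dividing cells, was higher in DU101, at 234 CPM against 117 in DU102 and 118 in control. Upp1, uridine phosphorylase 1, was at 32.0 and 59.3 CPM. Il1f9, a cytokine of the IL-1 family, was higher than control in both, at 46.9 CPM in control, 74.7 in DU101 and 94.6 in DU102, though its log2 ratio of DU101 to control was 0.30 in cells thinned to 2000 UMIs.

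RNA of other cell types differed between the libraries as well. The B and plasma cell list summed to 77.2 CPM in control, 1003 in DU101 and 117 in DU102 members. It was mostly Igkc, seen in 99.2% of DU101 members, and in other DU101 barcodes Igkc was at 32263 CPM, while Cd79a was at 0 by the choice. The dendritic list summed to 494, 819 and 226 CPM, the monocyte and macrophage list to 85.5, 102 and 64.6, the hepatocyte list to 77.9, 109 and 91.3, and the erythroid list to 23.4, 3.09 and 1059 CPM. Cd3d stood apart from the other T cell genes: it was at 21.4, 11.7 and 136 CPM and in 61.1% of DU102 members, while Trac was at 0.689, 2.41 and 1.73 CPM and Cd3e at 0 by the choice. Mcpt8, a basophil protease, was counted as higher in DU101, but 330 of its 344 UMIs came from 1 barcode. The part of these RNAs in the other results was not tested.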

How the data were processed

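Sorted CD45+ cells were measured in 1 10x 3' v3 library per group. The deposited matrices hold raw UMI counts per gene and barcode, made by the authors with Cell Ranger and mm10. The version is 2.1.1 per the submitters' processing notes and 6.0.0 per the file headers. Members, lists and named genes were chosen with earlier results of these data known. UMIs were summed over members, and ratios carry the exact 95% interval of 2 Poisson counts; against 0, a floor of 3 counts was used. A gene was named if it was among the 10 highest and 10 lowest in each comparison by the interval end nearest to 1, at 50 CPM or more and at 0.25 or more of the level in other barcodes, was in the granule, S100, oxidase, transcription factor or marker lists, or was among the 4 with the largest change in another list. Arg1, Bst2, Gapdh, Il1r2, Mki67, Nos2 and Pcna were added after their values were seen. Doublets were called with Scrublet in scanpy 1.11.5. Shares of dividing cells and Retnlg ranges used cells thinned to 2000 UMIs. On simulated counts for DU101 over control, 84.0% and 80.5% of genes set to 2-fold up or down were called, and 2.13% of 7378 unchanged genes. With 1 library per group, differences between animals cannot be known, so 2.13% is not a false call rate between groups. Alternatives varied the limits, doublets, sex, scaling, weighting and thinning. Promoters and positions come from RefSeq tables of GRCm38.p6. Python 3.11.15 with numpy 2.4.6, scipy 1.17.1 and pandas 2.3.3 was used. PCR and free RNA are not covered by the intervals.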

Additional observations from a re-analysis of the deposited data

How the results depend on the processing

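No paired analysis was possible because each group is 1 library. Alternatives on Y-positive cells in every library, on Retnlg ranges, on the cells with the most UMIs of a gene, and on doublets, sex and a 2% granule limit for the dividing and range shares were chosen after seeing the data. The changes below are descriptions, and the cause was not tested except where the alternative itself leaves out cells or genes. With the control library held to Y-positive, Xist-negative cells the share of members was 1.42-fold control in DU101 and 2.04-fold in DU102, and with every library so held 1.35-fold and 2.07-fold. Log2 ratios to control then changed sign for Cd274 in DU101 (0.36 and 0.79), Cd274 in DU102 (0.10 with every library held), Ifitm1 in DU102 (0.058 and 0.15) and the median of the S100 and cytosolic list in DU102 (0.22 and 0.19). That median was -0.10 in DU101 over DU102. The Retnlg ranges became 14.5% for 2 to 9 in control, 41.3% for under 2 and 34.6% for 10 or more in DU101, and 16.8% for 2 to 9 in DU102. With at most 1 UMI of primary granule RNA the share ratio was 4.66 in DU102 over control and 0.831 in DU101 over DU102.

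Counts of genes that differed moved with weighting, scaling, depth and the size limit. With cells weighted alike, 1057 genes were higher in DU101 and 576 in DU102 than in control, and 350 were lower in DU101 than in DU102. Without granule, S100 and stefin genes in the totals, 561 were higher and 286 lower in DU101, and 493 and 511 in DU102. With median-of-ratios size factors, DU102 had 469 higher and 536 lower, and DU101 over DU102 had 582 and 334. At 100 UMIs or more the counts were 211 and 309 for DU101, 644 lower for DU102, and 550 and 110 for DU101 over DU102. In cells thinned to 2000 UMIs they were 142 and 207, 100 and 299, and 397 higher for DU101 over DU102. At 2-fold they were 190 and 189, 122 and 447, and 380 and 69.

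The dividing share was 26.2% in control and 23.4% in DU102 without thinning, 13.6% in DU101 and 13.3% in DU102 at 1000 UMIs, and 16.8% in DU101 at 5 G2/M UMIs. With granule RNA of 2% or more, the range under 2 Retnlg UMIs held 38.5%, 51.4% and 32.1% in control, DU101 and DU102, the range of 10 or more 42.3%, 24.95% and 44.0%, and that of 2 to 9 in DU102 24.0%.

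Other log2 values changed sign. With doublets left out Irf8 was at -0.56 and -0.062 over control and -0.50 in DU101 over DU102, where it was -0.062 when thinned and -0.15 without the top 2% of cells. Thinning took Rrm1 in DU101 to 0.15 and the immature marker median of DU101 over DU102 to 0.12. Weighting cells alike gave -0.19 for Cd274 and -0.040 for the S100 list in DU101 over DU102, and 0.078 for tertiary granule genes in DU101 over control. The mature list in DU102 over control was 0.035 without granule, S100 and stefin genes in the totals and 0.019 with median-of-ratios factors. In cells without G2/M RNA, DU101 over DU102 was 0.057 for immature markers and -0.063 for the S100 list.

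Within Retnlg ranges, list medians changed sign as follows. Under 2 UMIs, DU101 over control was -0.049 for immature markers, 0.12 for tertiary granule, 0.035 for mature and 0.082 for glucocorticoid-responsive genes, DU102 over control 0.18 for the S100 list, and DU101 over DU102 0.058 for mature genes. From 2 to 9, DU101 over control was 0.31 for tertiary granule, 0.0045 for mature and 0.10 for inflammatory genes, DU102 over control 0.16 for the S100 list, and DU101 over DU102 0.27 for tertiary granule, 0.67 for mature and 0.16 for receptor genes. At 10 or more, DU101 over control was 0.029 for tertiary granule and -0.019 for immediate-early genes, and DU101 over DU102 was 0.066 for immature markers, -0.067 for the S100 list, 0.0051 for receptors and -0.031 for S phase genes.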
